A study of Mus musculus with 12 samples.

Results

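Ube3a lies on mouse chromosome 7 in a region where some genes are read from the copy of only 1 parent. Ube3a and its neighbours were examined in the ventral hippocampus of mice labelled with Angelman syndrome (AS) and of wild-type mice. The members were taken from a list of 10 genes named by symbol (Ube3a, Snrpn, Snhg14, Ndn, Magel2, Herc2, Nipa1, Nipa2, Cyfip1 and Tubgcp5), and their Ensembl identifiers came from the GENCODE M21 mouse annotation. Of these, 7 had a row among the 13951 genes of the deposited expression table. Snrpn, Snhg14 and Magel2 were not analysed here under their own identifiers. Gm38393, a gene model with a row that overlaps Snrpn, is described beside them and kept apart from the members.

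The samples were 12 polyadenylated RNA libraries, 3 from each of 4 groups of C57BL/6J mice: AS females, AS males, wild-type (WT) females and WT males. All mice were 12 to 16 weeks old, and the tissue was the ventral part of the right hippocampus. The labels give the AS mice a disease state and no allele, parent of origin or construct, so what was mutated is not known from them. The design text counts 3 mice per group, and no batch is given.

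Angelman syndrome follows when the UBE3A gene inherited from the mother is lost. Its protein is a ligase that attaches ubiquitin to other proteins and so marks many of them for degradation. In neurons of mice and humans the paternal copy is held silent by a long antisense RNA, Snhg14, which starts near Snrpn and runs back across Ube3a. Snrpn, Ndn and Magel2 are read only from the paternal copy, while Herc2, Nipa1, Nipa2, Cyfip1 and Tubgcp5 are generally taken to be read from both.

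Values are log2(abundance + 1), computed from the deposited table, which was read as natural logs of an RSEM abundance plus 1. Levels of different genes are set side by side on the assumption that these abundances are scaled to transcript length. The sources used here do not state this. Each difference is AS minus WT on this log2 scale from a single limma fit to 13858 genes in all 12 libraries, with its standard error (SE). Calls needed a p under 0.05 after Benjamini-Hochberg adjustment across these genes. In bulk tissue, fewer cells of a type and less RNA per cell cannot be told apart. In the middle of its range the table holds the same set of values in every library, so a shift shared by all genes would not be seen. Totals of the back-transformed values ran from 547558 to 587587 per library, and the number of reads behind them is unknown.

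Markers of neurons, which the labelled tissue should hold, were high in every library. The 5 neuronal markers (Rbfox3, Snap25, Syt1, Tubb3 and Map2) had a mean level of 8.09 to 8.20 in AS libraries and of 8.05 to 8.28 in WT libraries. Markers of the choroid plexus, the epithelium that makes cerebrospinal fluid and borders the ventral hippocampus, stood apart in 4 libraries. The mean of these 7 markers (Ttr, Folr1, Kl, Clic6, Aqp1, Kcnj13 and Otx2) was 5.82 and 3.71 in replicate 2 of the AS females and of the AS males, and 4.95 and 6.01 in replicates 1 and 2 of the WT females. It lay between 1.11 and 2.11 in the others, and its part in the results was not tested beyond the fits given here. WT female replicate 1 also had Xist at 0.35, against 6.00 or more in the other 5 libraries labelled female. The libraries labelled male had Xist at 0.17 to 0.52, so the sex label of that replicate is in doubt. For the members, values without the 4 libraries or without WT female replicate 1 are given where they differ by more than 1.5 times or change sign. The fit without the 4 libraries leaves 1 WT female library, which is assumed to vary like the other groups, and it called 0 of the 7 members.

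None of the 7 members passed the test between AS and WT mice, in females, in males or over both sexes. Over both sexes, 4 of 7 members were above 0, as were 52.7% of all genes. The differences ran from -0.09 to 0.11, with a median of 0.02 against 0.01 over all genes tested. The fit called 0 of 7 members and 0 of 13858 genes (0.0%) over both sexes, in females, in males and in the test of genotype by sex. At an unadjusted p under 0.05 over both sexes there were 741 genes (5.35%) and 0 members. The 6 AS and 6 WT libraries were apart without overlap in 0 members and in 0.361% of all genes. The adjusted p of the members over both sexes lay between 0.915 and 0.988 (limma).

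Ube3a (ENSMUSG00000025326) spans 59228750 to 59311536 on the plus strand of chromosome 7 (GRCm38), and its annotated exons cover 20626 bases. Its promoter sequence is shown because it is the annotated start of the gene whose loss from the mother leads to the syndrome. RefSeq's window on GRCm38.p6 runs from 250 bases before the start to 50 after it (chr7:59228500-59228799, plus strand), and capitals mark CpG dinucleotides, the sites of DNA methylation. It holds 29 of them, more than 87.1% of 32851 such windows.
Ube3a: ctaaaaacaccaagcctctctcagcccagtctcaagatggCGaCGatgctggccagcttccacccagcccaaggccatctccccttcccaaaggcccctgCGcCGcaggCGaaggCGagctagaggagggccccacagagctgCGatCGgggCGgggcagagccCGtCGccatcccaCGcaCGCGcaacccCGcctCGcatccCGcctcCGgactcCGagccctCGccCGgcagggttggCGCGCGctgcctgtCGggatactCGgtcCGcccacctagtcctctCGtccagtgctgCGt

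Ube3a had a level of 4.16, 4.25 and 3.95 in AS females and of 3.78, 4.31 and 3.99 in AS males, against 4.34, 4.09 and 4.30 in WT females and 4.02, 3.99 and 4.21 in WT males. The lowest library of all was AS male replicate 1 and the highest was WT female replicate 1, but AS and WT overlapped in both sexes, so the level of Ube3a did not separate the libraries by their labels. The mean was 4.07 ± 0.20 in AS and 4.16 ± 0.15 in WT libraries (SD, n = 6 each), which places Ube3a above 58.7% of the genes in the table. The difference was -0.12 ± 0.13 in females and -0.05 ± 0.13 in males (SE), and the test of whether these differ by sex gave 0.08 ± 0.19 (adjusted p = 0.992, limma). Without the 4 libraries high in choroid plexus markers it was -0.21 ± 0.09 over both sexes, with an unadjusted p of 0.0538 and an adjusted p of 0.71 (limma), and its value with all libraries was -0.09 ± 0.09. With all 12 libraries and the choroid plexus marker mean as a covariate it was -0.07 ± 0.09 (unadjusted p = 0.465, adjusted p = 0.936, limma), and with library weights -0.13 ± 0.08. The values in females and males were -0.24 ± 0.15 and -0.19 ± 0.11 without the 4 libraries, and without WT female replicate 1 it was -0.07 in females. In males its sign turned to 0.08 without AS male replicate 1 and to 0.02 without WT male replicate 3.

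Pooled over the 4 groups, Ube3a varied more between mice of the same group than most genes of its level. Its SD within groups was 0.18, larger than that of 80.4% of the 3066 genes with a mean within 0.5 of its own, whose median SD was 0.12. Ndn stood alike, with 0.15, above 82.7% of its 359 such genes. By group, the SD of Ube3a was largest in AS males, at 0.27. It was 0.15 in AS females, 0.13 in WT females and 0.12 in WT males. Herc2, Nipa2 and Tubgcp5 were steadier than most, with SDs of 0.07, 0.08 and 0.09 that exceeded those of 15.9%, 18.6% and 19.1% of genes of like level.

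The value for Ube3a does not separate it from its antisense RNA. Annotated exons of Snhg14, on the opposite strand, share 1803 bases with those of Ube3a, which is 8.74% of Ube3a's exonic bases. Another 2 short unclassified models on the opposite strand, 9330162G02Rik and Gm44560, share 1796 and 2025 bases. The labels name the standard NEB Ultra RNA kit, which does not mark the strand of a read.

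**Figure D1:**
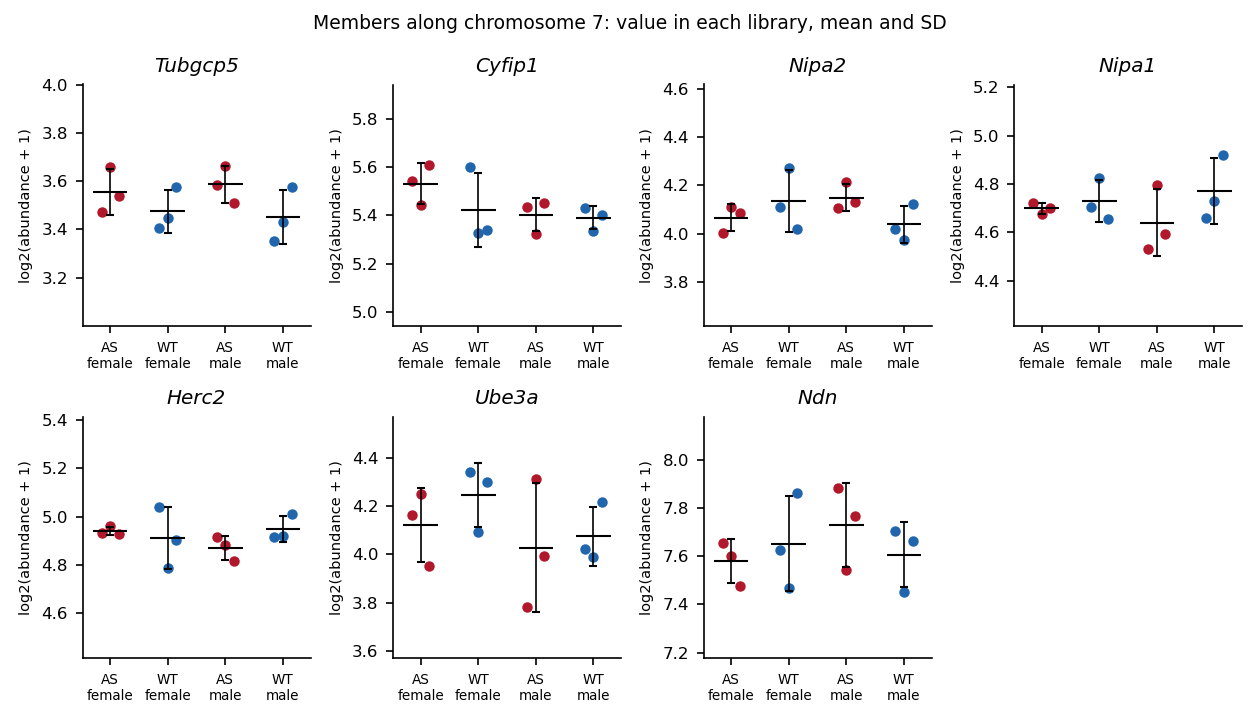
Level of the 7 members, as log2(abundance + 1), in each library (points, red AS and blue WT), with the group mean and SD (bars, n = 3). Every y axis spans at least 1 log2 unit, and AS and WT points overlap in every panel for females and in all but Herc2 for males.

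At the paternally read end of the locus, 1 gene model gave the highest level of the region. Gm38393 (ENSMUSG00000000948, 59974149 to 60005064, minus strand) is annotated in M21 as a protein-coding gene with 4 transcripts that run through Snurf and Snrpn and toward Snhg14. It shares 589 exonic bases with Snrpn (27.3% of the exonic bases of Snrpn) and all 216 exonic bases of Snurf, and 27 bases with Snhg14. Snrpn encodes a core protein of the splicing machinery that is made mainly in brain, and Snurf is a short reading frame carried on the same transcript. How the authors' annotation drew this gene is not known, so its value is a level of the Snurf-Snrpn locus and not of 1 named transcript.

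The shared promoter of Snrpn and Snurf is shown because the annotated start of Gm38393 lies 135 bases from its start, and the region around the first exon of Snrpn is known as the control element of the imprint. It is 1 of 4 RefSeq windows for Snrpn and lies at chr7:60005150-60005449 on the minus strand (RefSeq, GRCm38.p6), with CpG dinucleotides in capitals. It holds 7 of them, the median of all windows, against 29 at Ube3a.
Snrpn and Snurf: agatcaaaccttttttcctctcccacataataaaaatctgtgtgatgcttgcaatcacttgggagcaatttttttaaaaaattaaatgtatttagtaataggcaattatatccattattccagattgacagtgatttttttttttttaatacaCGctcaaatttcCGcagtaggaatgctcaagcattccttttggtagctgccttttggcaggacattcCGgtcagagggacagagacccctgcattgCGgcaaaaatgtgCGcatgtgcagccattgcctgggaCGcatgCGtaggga

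Gm38393 had a level of 8.89, 8.83 and 8.81 in AS females and of 8.86, 8.78 and 8.88 in AS males, against 8.66, 8.81 and 8.80 in WT females and 8.75, 8.85 and 8.69 in WT males. The AS females lay just above the WT females without overlap, as was so for 4.99% of all genes, and the males overlapped. The difference over both sexes was 0.08 ± 0.04, or 5.75% on the abundance + 1 scale (95% interval -1.07% to 13%, unadjusted p = 0.0925, adjusted p = 0.914, limma). The lowest WT female, at 8.66, was replicate 1, and without it the difference was 0.06 ± 0.04. In females the difference was 0.09 ± 0.06, and 0.04 to 0.11 with 1 library left out at a time. Without the 4 libraries high in choroid plexus markers it was 0.04 in females. With a mean abundance of 445 Gm38393 stood above 99.2% of the genes in the table.

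Ndn (ENSMUSG00000033585, 62346569 to 62350262, plus strand) encodes necdin, a protein of the MAGE family that restrains cell division and promotes survival of neurons. Its only annotated transcript has no intron. Its RefSeq start lies inside the span that GENCODE gives. The promoter window, at chr7:62348027-62348326 on the plus strand (RefSeq, GRCm38.p6), is given for comparison with the others and holds 11 CpG dinucleotides, again in capitals.
Ndn: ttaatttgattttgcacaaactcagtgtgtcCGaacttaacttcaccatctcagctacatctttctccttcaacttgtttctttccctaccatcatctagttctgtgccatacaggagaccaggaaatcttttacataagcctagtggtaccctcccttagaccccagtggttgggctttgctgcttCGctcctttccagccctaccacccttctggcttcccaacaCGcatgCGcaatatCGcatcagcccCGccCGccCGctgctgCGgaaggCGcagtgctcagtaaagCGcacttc

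Ndn had a level of 7.66, 7.60 and 7.48 in AS females and of 7.88, 7.54 and 7.77 in AS males, against 7.63, 7.47 and 7.86 in WT females and 7.70, 7.45 and 7.66 in WT males. Its level was the highest of the members in all 12 libraries, above 97.3% of the genes in the table. AS and WT libraries overlapped in both sexes. The difference was -0.07 ± 0.11 in females and 0.12 ± 0.11 in males, and 0.03 ± 0.08 over both sexes. The sexes thus lay on opposite sides of 0, but the test of that difference gave 0.20 ± 0.16 (adjusted p = 0.987, limma). Without the 4 libraries high in choroid plexus markers Ndn was at -0.29 ± 0.13 in females (unadjusted p = 0.0541) and 0.22 ± 0.10 in males (unadjusted p = 0.0551), and at -0.04 ± 0.08 over both sexes. In that fit the test between the sexes gave 0.51 ± 0.16 (unadjusted p = 0.0142, adjusted p = 0.806, limma), so it did not pass over all genes. With the marker mean as a covariate Ndn was at -0.14 in females and 0.00405 over both sexes, and with library weights at -0.04 in females and 0.06 over both sexes.

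Herc2 (ENSMUSG00000030451, 56050196 to 56231800, plus strand) encodes a very large ubiquitin ligase that binds UBE3A and stimulates its activity. It had a level of 4.93, 4.96 and 4.93 in AS females and of 4.92, 4.88 and 4.82 in AS males, against 5.04, 4.79 and 4.90 in WT females and 4.92, 4.92 and 5.01 in WT males. The 3 AS males were below the 3 WT males, by a margin that vanishes at 2 decimals, and 5.18% of all genes were lower without overlap in males. The difference was 0.03 ± 0.07 in females and -0.08 ± 0.07 in males. Without WT female replicate 1 it was 0.09 in females and 0.00848 over both sexes. Herc2 had the narrowest interval of the members over both sexes, from -8.63% to 5.85% in abundance + 1.

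Nipa1 and Nipa2 encode related magnesium transporters of the cell membrane and endosomes, and they lie side by side on the minus strand. Nipa1 (ENSMUSG00000047037, 55977567 to 56019954) had a level of 4.72, 4.68 and 4.70 in AS females and of 4.53, 4.80 and 4.60 in AS males, against 4.71, 4.83 and 4.66 in WT females and 4.66, 4.73 and 4.92 in WT males. Nipa2 (ENSMUSG00000030452, 55931287 to 55962476) had a level of 4.00, 4.11 and 4.09 in AS females and of 4.10, 4.21 and 4.13 in AS males, against 4.11, 4.27 and 4.02 in WT females and 4.02, 3.97 and 4.12 in WT males. In both genes the groups overlapped. The difference for Nipa1 was -0.03 ± 0.09 in females and -0.13 ± 0.09 in males. Without the 4 libraries high in choroid plexus markers it was 0.06 ± 0.12 in females and -0.21 ± 0.09 in males (unadjusted p = 0.0498, adjusted p = 0.722 in males, limma), and with the marker mean as a covariate it was -0.00117 in females. For Nipa2 it was -0.07 ± 0.08 in females and 0.11 ± 0.08 in males, and the test between the sexes gave 0.18 ± 0.11 (adjusted p = 0.987, limma). Nipa2 was at 0.03 ± 0.10 in females and 0.05 ± 0.06 over both sexes without these 4 libraries. With the marker mean as a covariate it was at -0.03 in females and 0.04 over both sexes, and with library weights at -0.00371 over both sexes.

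Within groups, libraries high in Nipa1 tended to be high in Nipa2. Deviations from the group means correlated with Pearson's r = 0.73 (permutation test with 100000 resamples, two-sided, p = 0.00674, adjusted p = 0.0202 over 3 pairs of neighbours) and Spearman's rho = 0.63 (p = 0.0334, adjusted p = 0.1, same permutation test). The relation did not keep its call without the 2 libraries farthest from the median of Nipa1, where r was 0.66 over 10 libraries (permutation test, adjusted p = 0.101). For the levels as they are r was 0.35 (permutation test, adjusted p = 0.477). Taking out 4 group means leaves 8 free values among the 12, so these p-values are somewhat too small. The other pairs of neighbours, Nipa2 with Cyfip1 and Tubgcp5 with Cyfip1, gave r of -0.22 and -0.56 and rho of -0.18 and -0.42, and did not pass (permutation test, p = 0.493 and 0.0596 for r, 0.574 and 0.176 for rho, adjusted p = 0.493 and 0.0893 for r, 0.574 and 0.265 for rho). Without the 2 libraries farthest from the median of the first gene, r was -0.02 and -0.60.

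**Figure D2:**
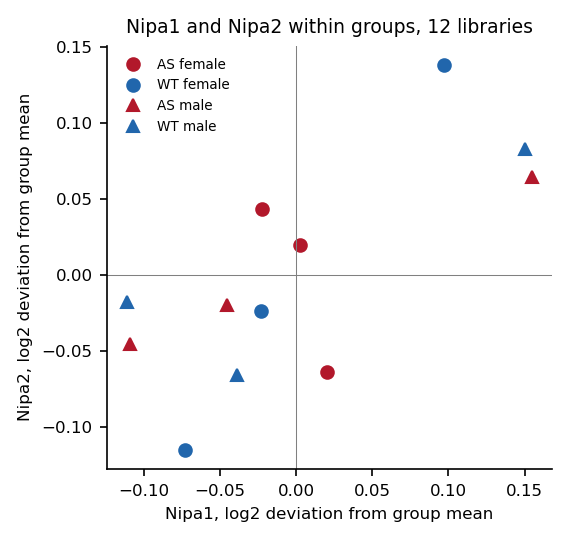
Deviation of Nipa1 (x axis) and Nipa2 (y axis) from the mean of their group, in log2 units, for 12 libraries (red AS, blue WT, circles females, triangles males). The points rise together with Pearson's r = 0.73, which is 0.66 without the 2 libraries farthest from the median of Nipa1.

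Cyfip1 (ENSMUSG00000030447, 55841745 to 55932602, plus strand) encodes a subunit of the WAVE complex, which drives branching of actin filaments, and a partner of the translational repressor FMRP. It had a level of 5.54, 5.44 and 5.61 in AS females and of 5.44, 5.32 and 5.45 in AS males, against 5.60, 5.33 and 5.34 in WT females and 5.43, 5.34 and 5.40 in WT males. The library with little Xist, WT female replicate 1, lay among the AS females, and the other 2 WT females lay below them. The difference was 0.11 ± 0.08 in females and 0.01 ± 0.08 in males, and 0.06 ± 0.06 over both sexes. Without that library it was 0.20 in females and 0.10 over both sexes. Without the 4 libraries high in choroid plexus markers it was 0.24 ± 0.08 in females (unadjusted p = 0.0223, adjusted p = 0.715, limma), 0.05 ± 0.06 in males and 0.14 ± 0.05 over both sexes (unadjusted p = 0.0241, adjusted p = 0.682, limma). In males the sign turned to -0.003 without AS male replicate 1, and to -0.01 without AS male replicate 3 or WT male replicate 2. The difference in males was 0.02 with the marker mean as a covariate and 0.04 with library weights. Cyfip1 and Nipa2 meet tail to tail and share 1316 exonic bases, 11% of those of Cyfip1 and 18.6% of those of Nipa2.

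Tubgcp5 (ENSMUSG00000033790, 55794154 to 55831677, plus strand) encodes a subunit of the gamma-tubulin ring complex, from which microtubules grow. It had a level of 3.47, 3.66 and 3.54 in AS females and of 3.59, 3.66 and 3.51 in AS males, against 3.41, 3.45 and 3.58 in WT females and 3.35, 3.43 and 3.57 in WT males. AS and WT libraries overlapped in both sexes. Its difference of 0.11 ± 0.06 over both sexes had the smallest p of the 7 members (unadjusted p = 0.1, adjusted p = 0.915, limma). The difference was 0.08 ± 0.09 in females and 0.14 ± 0.09 in males, and in females it was 0.05 without WT female replicate 1. It was -0.07 ± 0.12 in females and 0.01 ± 0.08 over both sexes (unadjusted p = 0.865, limma) when the 4 libraries high in choroid plexus markers were left out.

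**Figure D3:**
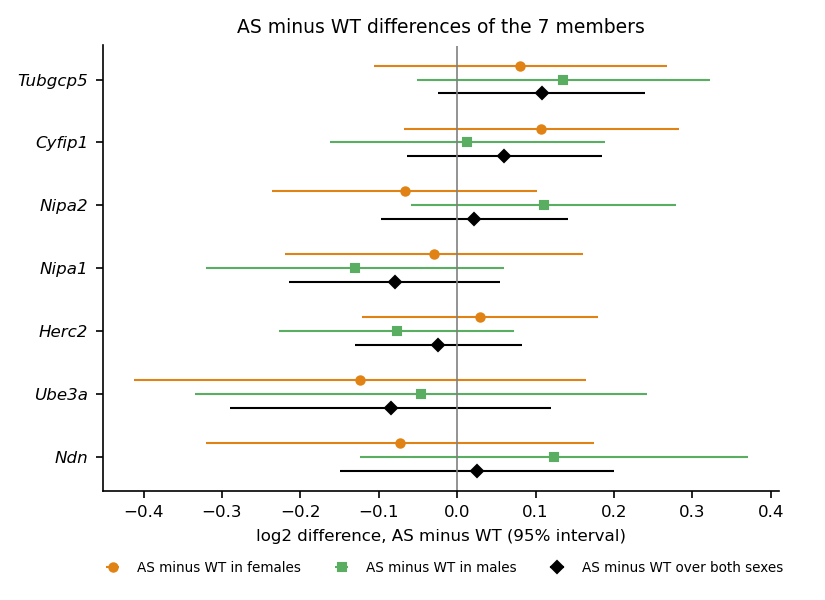
AS minus WT difference on the log2 scale for the 7 members in females (orange circles), in males (green squares) and over both sexes (black diamonds), with 95% intervals from limma. Every interval includes 0, and Ube3a has the widest, from -0.29 to 0.12 over both sexes.

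The 95% intervals give the precision of each difference, gene by gene and before adjustment over all genes. They are not the smallest change that could have been called. Over both sexes the 95% intervals of the other 6 members lay between -13.8% and 18.1% in abundance + 1, and that of Ube3a ran from -18.2% to 8.61%. Within 1 sex the intervals of the 7 members reached from -24.9% to 29.3%. Between the sexes, male minus female over both genotypes, the members ran from -0.13 (Ube3a) to 0.05 (Ndn). None was called (adjusted p from 0.819 to 0.996, limma), where 5 of 13858 genes (0.0361%) were. The comparison counts WT female replicate 1 as female, though its Xist of 0.35 lay within the range of the libraries labelled male.

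The order of the member levels was Ndn, Cyfip1, Herc2, Nipa1, Ube3a, Nipa2 and Tubgcp5, with means over the 12 libraries of 7.64, 5.44, 4.92, 4.71, 4.12, 4.10 and 3.52. Ube3a and Nipa2 did not differ beyond their spread, with a mean gap of 0.02 ± 0.18 (SD, n = 12) and Ube3a higher in 7 of 12 libraries. Herc2 was above Nipa1 in 11 of 12 libraries and their ranges overlapped. The other neighbours in that order had ranges that did not overlap. In abundance units, if these are scaled to transcript length, Ube3a was at 16.5 on average, against 200 for Ndn and 445 for the Snurf-Snrpn model.

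Between the members lie other genes of the region, and 16 genes of the region were examined (the 7 members included), of which 15 passed the filter on low values. Over both sexes 6 of the 15 were above 0 and 9 below it, with a median of -0.08 against 0.01 over all genes. Gm38393, A230056P14Rik, A230006K03Rik, Siglech and Rps12l1 were added by position after the table had been seen. Of the 15, 1 had an unadjusted p under 0.05, A230056P14Rik, against 5.35% of all genes, and 0 were called. Groups did not overlap for 3 of the 15 in females, where 9.01% of all genes did not, and for 2 of the 15 in males, where 11.2% did not.

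A230056P14Rik was the gene of the region with the largest relative deficit in AS mice apart from a pseudogene, and was singled out after its values were seen. It is an uncharacterised RNA on the plus strand (55962531 to 55980868) that starts 55 bases from the start of Nipa2, runs in the opposite direction, and shares 473 bases with the exons of Nipa1. It had a level of 2.22, 2.08 and 1.68 in AS females and of 2.06, 1.95 and 1.76 in AS males, against 2.64, 2.37 and 2.63 in WT females and 1.97, 3.02 and 2.76 in WT males. All AS libraries lay below all WT libraries except WT male replicate 1. The difference was -0.60 ± 0.17 over both sexes, which is -34.2% in abundance + 1 (95% interval -48.9% to -15.3%), with an unadjusted p of 0.00368. It did not pass over all genes (adjusted p = 0.661, limma). Nipa2, read from the other side of the same start region, was at 0.02 ± 0.05.

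The stretch between these starts is shown because both transcripts begin in it. The window is the Nipa2 promoter, at chr7:55962444-55962743 on the minus strand (RefSeq, GRCm38.p6). Capitals mark the 39 bases from the annotated start of A230056P14Rik to the RefSeq start of Nipa2.
Nipa2: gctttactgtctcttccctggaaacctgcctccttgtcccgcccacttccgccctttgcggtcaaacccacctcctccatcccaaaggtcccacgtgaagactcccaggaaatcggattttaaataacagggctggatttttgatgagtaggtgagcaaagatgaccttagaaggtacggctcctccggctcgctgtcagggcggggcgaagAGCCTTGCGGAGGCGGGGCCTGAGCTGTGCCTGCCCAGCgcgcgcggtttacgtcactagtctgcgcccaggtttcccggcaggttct

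Atp10a, which encodes a phospholipid flippase, is the nearest protein-coding neighbour of Ube3a on its upstream side (58656166 to 58829420). It had a level of 1.55, 1.84 and 1.68 in AS females and of 1.43, 1.48 and 1.49 in AS males, against 1.99, 1.44 and 1.76 in WT females and 1.81, 2.08 and 1.81 in WT males. The AS males lay below the WT males without overlap, and the females overlapped widely. The difference was -0.43 ± 0.16 in males (unadjusted p = 0.0187, adjusted p = 0.752, limma) and -0.04 ± 0.16 in females. The test between the sexes gave -0.39 ± 0.22 and did not pass (adjusted p = 0.987, limma).

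Gabra5 and Gabrg3 encode subunits of the GABA-A receptors, the main fast inhibitory receptors of the brain, and neither was called. Gabra5 was at -0.11 ± 0.07 and Gabrg3 at 0.09 ± 0.09.

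Of the remaining genes, Siglech, a microglial receptor gene at the edge of the region, was at -0.10 ± 0.08 and the long noncoding RNA A230006K03Rik at -0.09 ± 0.11. The processed pseudogene Rps12l1 ran from 0.61 to 1.11 in AS females and from 1.01 to 6.77 in AS males, against 3.10 to 4.69 in WT females and 1.37 to 5.31 in WT males. The AS females lay below the WT females without overlap and the males overlapped. The difference was -3.00 ± 1.23 in females (unadjusted p = 0.0315, adjusted p = 1, limma), 0.33 ± 1.23 in males and -1.33 ± 0.87 over both sexes, with an SD within groups of 1.80. Whether reads of its parent gene enter this value was not tested. Oca2, a melanosome gene, was below the filter. Its level reached 1.55 in replicate 2 of the AS females, and 1.03 and 1.91 in replicates 1 and 2 of the WT females, the 3 libraries highest in choroid plexus markers, and was 0.71 or less in the others.

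**Figure D4:**
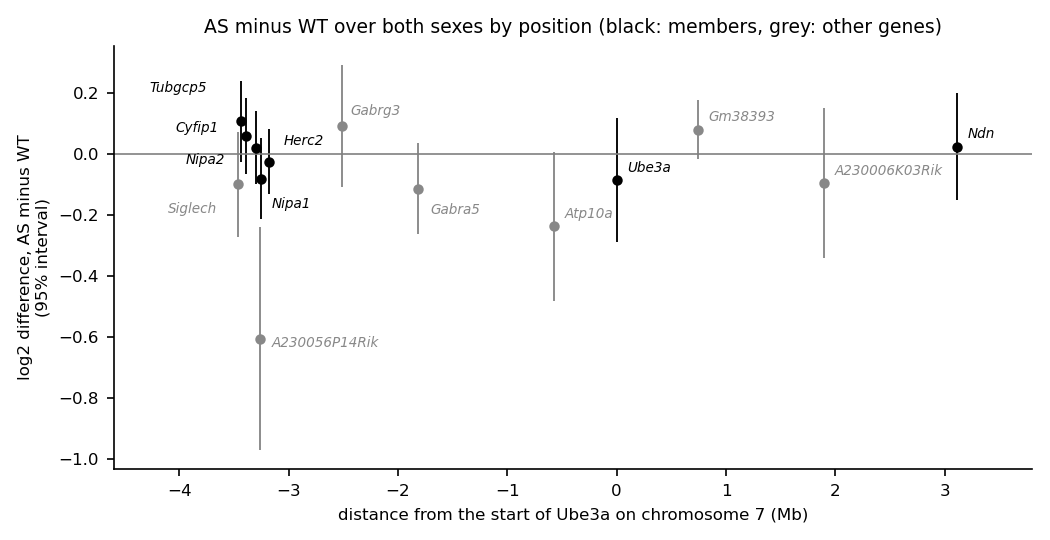
AS minus WT difference over both sexes (y axis, log2 scale, 95% intervals from limma) against the distance of each gene's lower coordinate from that of Ube3a (x axis, Mb), with members in black and other tested genes in grey. Rps12l1 is left out for its wide interval, and of the genes drawn only A230056P14Rik (-0.60) has an interval below 0, before adjustment over all genes.

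**Figure D5:**
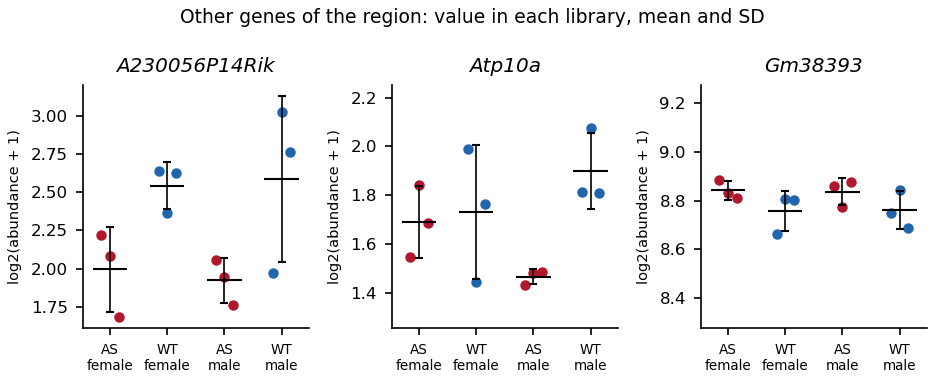
Level of 3 other genes of the region, as log2(abundance + 1), in each library (points, red AS and blue WT), with the group mean and SD (bars, n = 3). A230056P14Rik lay at 1.68 to 2.22 in AS and 1.97 to 3.02 in WT libraries, and the Atp10a gap is in males.

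Genes whose products work with those of the members were read from lists fixed by function. None of the genes of any list was called in a genotype comparison, as none was among all genes. Over both sexes 52.7% of all genes were above 0, beside which the counts of each list stand. Of 4 genes of the complex of HERC2 and UBE3A, which holds both members, 1 was above 0 and 3 below it. Its kinase gene Mapk6 was at -0.08 ± 0.09. Of 8 genes listed for Sm proteins, the class to which the Snrpn product belongs (the list also holds Snrpb2, whose protein is of the spliceosome but not of that class), 3 were above 0 and 5 below it, with Snrpe at 0.08 ± 0.07 and Snrpd1 at 0.08 ± 0.07. Of 8 genes for partners of MAGEL2 in endosomal sorting 6 were above 0, but their median of 0.0039 was below the 0.0053 over all genes. Trim27, a ubiquitin ligase gene, was at 0.10 ± 0.08 and Washc1 at 0.05 ± 0.05.

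Of 10 genes listed for the WAVE complex and FMRP, 6 were above 0, with a median of 0.05 against 0.01 over all genes. The list holds partners of Cyfip1 and also Cyfip2, its relative. Nckap1 was at 0.08 ± 0.05 and Wasf1, which encodes WAVE1, at 0.12 ± 0.07. Of 8 tested genes of the gamma-tubulin ring complex other than Tubgcp5, 6 were above 0, with Tubgcp2 at 0.08 ± 0.06 and Tubgcp4 at 0.06 ± 0.07. Of 11 tested genes for magnesium transport and relatives of the NIPA proteins 8 were above 0, and Cnnm3, which encodes a magnesium transport mediator, was at 0.23 ± 0.08 (unadjusted p = 0.0191, adjusted p = 0.893, limma). Cnnm1 was at 0.07 ± 0.04. The 11 also hold Bmpr2, a receptor gene that belongs to neither class, at -0.03 ± 0.08.

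Imprinted genes of other loci did not pass either. Of 17 tested genes listed as read from the paternal copy, 12 were above 0, with a median of 0.05, and 2 had an unadjusted p under 0.05, against 52.7% and 5.35% of all genes. These were Usp29, at 0.28 ± 0.11, and Dlk1, which encodes a membrane protein related to Notch ligands, at 0.45 ± 0.19 (adjusted p = 0.893 and 0.905, limma). The list also holds Zim1, which is known to be read from the maternal copy in mouse, at 0.05 ± 0.13, and Ndufaf1, whose imprinting is uncertain, at 0.02 ± 0.09. Dlk1 was near the filter, at 1.46 ± 0.28 in AS and 1.01 ± 0.48 in WT libraries (SD, n = 6 each). Of 10 tested genes listed as read from the maternal copy 5 were above 0 and 5 below it, with Mirg, a noncoding RNA gene, at -0.13 ± 0.09 and Copg2 at 0.09 ± 0.06. Dcn, in this list, also served as a marker of meningeal fibroblasts. Whether the genes of either list are imprinted, or read from the listed copy, in the hippocampus was not tested.

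The genes whose level followed Ube3a most closely over the 12 libraries do not lie on chromosome 7: 3 of the 5 lie on chromosome 5, and 1 each on chromosomes 9 and 10. They were Klhl7, which encodes an adaptor of a ubiquitin ligase, with Pearson's r of 0.92, Tbc1d19 with 0.92, Cep126, a centrosomal gene, with 0.91, the nuclear pore gene Ranbp2 with 0.91 and the pseudogene Gm10221 with 0.90. These 5 are the highest of 13857 genes compared and are given as a description. The share of all genes on chromosome 7 was not computed, so their positions are a description too. Among the 21 pairs of members, r over the 12 libraries ran from -0.59 (Ndn with Nipa1) to 0.49 (Ube3a with Nipa1). The 5 genes were picked as the highest of all, so members lying below them says nothing about the locus.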

How the data were processed

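The authors deposited 1 table of log-scale expression values for 12 libraries. The submitters' processing notes name Trimmomatic, Bowtie2 and RSEM with GRCm38 (mm10); versions, normalization and filter are not given in the sources used here. The deposited values (0.100 to 10.1) were read as the natural log (ln) of an abundance plus 1, and log base 2 was an alternative. They were converted to log2(abundance + 1); a filter at a mean abundance of 1 left out 93 genes and kept 13858 for the tests. Of 13951 identifiers 13735 matched GENCODE M21. One linear model with 4 group means was fitted with limma 3.58.1 in R 4.3.3 (trended variance prior, residual df of 8). It was tested on simulated data. Relations between members used permutation in Python 3.11.15. Depth is unknown, so no counting error is given, and 12 libraries limit the precision. Alternatives were other added constants, filters, log base, library weights, a robust prior, a choroid plexus covariate, renormalization, fits of 6 libraries and left-out libraries. All members and the genes of the region reported here are named (1 more is not reported here), as are the 2 genes of each list with the smallest p and the 5 most like Ube3a; pairs with Snhg14, Snrpn or Magel2 were not analysed. Members and lists were chosen with earlier results of these data known.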

Additional observations from a re-analysis of the deposited data

How the results depend on the processing

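The 7 members gave 476 values under 23 other settings, of which 19 changed sign, 0 were called and the lowest adjusted p was 0.612 (limma). Part of the 476 could not change sign, because other filters and the robust prior alter only the error and the adjustment. Within 1 sex the same holds for the fits of 6 libraries and for leaving out a library of the other sex. The share of sign changes thus understates how unsteady the signs were. Read as base 2, the table gave Ube3a -0.06 ± 0.06 over both sexes.

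Counts of genes called depended on single libraries. Without the 4 libraries high in choroid plexus markers, 2 genes were called over both sexes, 5 in females, 1 in males, 2 in the test of genotype by sex and 12 between the sexes. Without WT female replicate 1, the counts were 1 over both sexes, 1 in females, 1 in genotype by sex and 8 between the sexes, and 2 were called over both sexes without WT male replicate 2. A mean abundance of at least 5 left 3 called between the sexes. With 1 library left out at a time, the counts ran from 0 to 2 over both sexes, 0 to 1 in females, 0 to 1 in males, 0 to 1 in genotype by sex and 4 to 8 between the sexes.

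Some small differences changed sign, and the cause was not tested. Without the 4 libraries, Ndn was -0.038 and Gabrg3 -0.0266 over both sexes, Tubgcp5 -0.0704, Nipa2 0.0259, Nipa1 0.0559, Gabrg3 -0.0301 and Gabra5 0.0183 in females, and Gabrg3 -0.0232 in males. With library weights, Nipa2 was -0.00371 over both sexes and Gabrg3 -0.00131 in males. Without the library low in Xist, which is WT female replicate 1, Herc2 was 0.00848 over both sexes and Atp10a 0.0885 in females.

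With 1 library left out at a time, over both sexes Ndn ran from -0.0205 to 0.0774, Nipa2 from -0.00698 to 0.0563 and Herc2 from -0.0548 to 0.00848. In females Atp10a ran from -0.184 to 0.0885, Herc2 from -0.0323 to 0.0943, Nipa1 from -0.0657 to 0.0194, Nipa2 from -0.124 to 0.0021 and Ndn from -0.164 to 0.0313. In males Cyfip1 ran from -0.0135 to 0.053, Ube3a from -0.188 to 0.0776, Siglech from -0.128 to 0.0424 and Gabrg3 from -0.0232 to 0.162.

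The relation of Nipa1 with Nipa2 lost its call for the levels as they are (r = 0.35) and without the 2 libraries farthest from the median of Nipa1 (r = 0.66). No paired analysis was possible because the labels give no replicate numbers and those used follow accession order. Depth is unknown, so what it limits could not be measured.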
